A study of Mus musculus with 4 samples.

Results

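Basal cells sorted from the mammary glands of mice treated with 6-OHDA were compared with basal cells sorted from control mice. The members are the 2 sorted libraries, chosen by their labels, out of 4 samples in the study, and the values of both libraries were joined on the NCBI Gene number. Of 17630 genes in each table, 11749 had a mean of at least 1 FPKM over both libraries and were compared. The study asks how sympathetic nerves act on mammary stem cells, and its other 2 libraries, from basal colonies grown in gel, are used here only for a few reference levels. Each side of the comparison has 1 library, so no test was made, no p-value is given, and the spread between mice or between sorts is unknown.

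Both groups carry the wild-type genotype in the labels, with no treatment recorded for the control and 6OHDA recorded for the other library. The labels give no strain, age, dose, time after treatment or number of pooled mice. The study's methods describe C57BL/6 mice and also Actin-DsRed mice, and subcutaneous 6-OHDA given to prepubertal or pregnant mice, without saying which were sequenced, and other experiments of the study used saline as the control. Cells were stained for CD24 and CD29, and for CD31, CD45 and TER119, which mark endothelium, leukocytes and red cells, in a shared channel.

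6-OHDA is a false substrate of the noradrenaline transporter. It is taken up by sympathetic nerve endings and destroys them by oxidation, and the study reports less noradrenaline in the mammary fat pad after this treatment. Basal cells form the outer layer of the mammary duct, hold the contractile myoepithelial cells and contain cells that can rebuild a gland on transplantation. They also carry the receptors through which interferons switch on antiviral genes, a program that epithelia keep at a low level even without infection.

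Gene levels are given as FPKM, fragment numbers scaled to transcript length and to the size of the library. A difference is log2(FPKM + 1) in the 6-OHDA library minus log2(FPKM + 1) in the control library, which understates the change of genes with low values. A gene was called higher or lower when its difference was over 0.3 in size, the size threshold of the study, and a stricter threshold of 1 was used beside it. Over all genes, FPKM came to a sum of 508071 in the control (16261 genes above 0) and of 517504 after 6-OHDA (16371 genes above 0). Across the genes compared, the levels in both libraries had a Pearson correlation of 0.97 on the log2 scale, computed over genes, which are not independent replicates.

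Of the differences between the libraries, those in 4 groups of genes are described at most length. Interferon-stimulated genes and the antigen presentation genes near them in function were lower, and genes of mitosis and DNA replication were higher. Collagens and several other fibroblast genes were higher, and part of the secretory genes of the salivary gland were abundant in the 6-OHDA library alone. In all, 1857 genes (15.8%) were higher and 981 genes (8.35%) were lower by more than 0.3, and 123 genes (1.05%) were higher and 106 genes (0.902%) were lower by more than 1. Every count of list members below can be read against these shares of all genes. The median difference of all genes compared was 0.06, against which every list median below can be read. The middle range of genes, between the 5th and the 95th percentile, ran from -0.39 to 0.50.

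**Figure D1:**
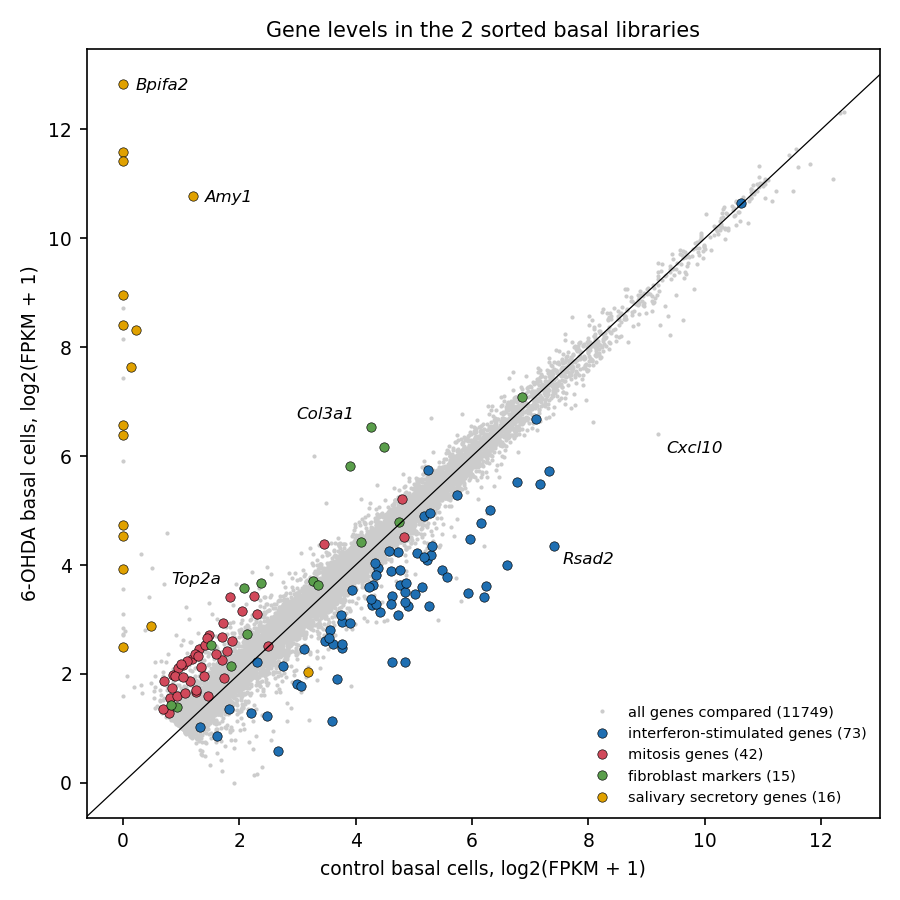
Levels of the 11749 genes compared, as log2(FPKM + 1), in the control library (horizontal axis) and the 6-OHDA library (vertical axis); each point is a gene, colours mark 4 gene lists and the line marks equal levels. Interferon-stimulated genes lie below the line apart from Ifitm3 and Ifi27l2a, mitosis genes and fibroblast markers lie mostly above it, and salivary genes other than Fcgbp stand at or near the left edge.

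The basal label was checked against markers. Krt14 and Krt5, the keratins of basal cells, reached 3595 and 1002 FPKM in the control, against 2633 and 869 FPKM after 6-OHDA. Trp63, the transcription factor of basal cells, was listed at 42.8 FPKM in the control and 52.6 FPKM after 6-OHDA. Acta2, the smooth muscle actin of myoepithelial cells, stood at 1949 and 2575 FPKM. Each of these defining markers was abundant in both libraries. Of 15 basal epithelial markers, all compared, 2 were higher and 2 were lower by more than 0.3, with a median of 0.06. Those higher were Vim, an intermediate filament gene (396 to 537 FPKM, difference 0.44), and Cd44, a hyaluronan receptor gene (110.4 to 137 FPKM, 0.31). Those lower were Krt14 (-0.45) and Krt17, a keratin of stressed and basal epithelium (2266 to 1643 FPKM, -0.46). The genes of the antigens used for the sort, Cd24a (312 and 285 FPKM) and Itgb1, which encodes CD29 (328 and 394 FPKM), differed by less than 0.3.

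The contractile apparatus of myoepithelial cells was close to level between the libraries. Of 17 genes compared, 2 were higher and 0 were lower, with a median of 0.11. The higher ones were Acta2 (0.40) and Actg2, the enteric smooth muscle actin, which was listed at 159 and 211 FPKM (0.40). Myocd, a coactivator of smooth muscle genes, was under the filter at 0.64 and 0.46 FPKM.

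Luminal keratins were also present in both libraries. Krt8 was listed at 559.9 and 545 FPKM and Krt18 at 375 and 295 FPKM, below the basal keratins but far from 0, while the hormone receptor gene Esr1 (2.77 and 2.85 FPKM) and the alveolar factor gene Elf5 (0.63 and 1.02 FPKM) were low. The 22 luminal markers summed to 1734 FPKM in the control and to 1568 FPKM in the 6-OHDA library, with Krt8 the most abundant in both. Of 21 luminal markers compared, 4 were higher and 8 were lower, with a median of -0.15. Aldh1a3, which makes retinoic acid in luminal progenitors, had the largest fall (36.5 to 18.9 FPKM, -0.92), followed by the monocyte and progenitor surface gene Cd14 (29.9 to 20.2 FPKM, -0.55) and the prolactin receptor gene Prlr (5.21 to 3.29 FPKM, -0.53). Ehf, an epithelial ETS factor gene, went the other way (2.59 to 6.26 FPKM, 1.02), as did Itgb3, which encodes the progenitor marker CD61 (4.47 to 7.66 FPKM, 0.66). Prom1, which encodes CD133, stayed low (1.97 and 1.74 FPKM).

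Markers of cells outside the epithelium were measured with the same scale. Endothelial genes were present in both libraries although CD31 was among the antigens stained to leave such cells out. Pecam1, which encodes CD31, was listed at 107 and 93.0 FPKM and Cdh5, a cadherin of endothelium, at 77.9 and 69.4 FPKM. The 12 endothelial markers summed to 492 FPKM in the control and to 491 FPKM in the 6-OHDA library, and 2 of 12 were higher and 0 were lower (median 0.14). The higher members were Emcn, a sialomucin gene (20.4 and 29.0 FPKM, 0.49), and Tek, the angiopoietin receptor gene (4.86 and 6.92 FPKM, 0.43). Plvap (106 and 99.9 FPKM) was the most abundant in the 6-OHDA library and Pecam1 in the control. Of the 6 pericyte markers compared, 1 was higher and 0 were lower (median 0.02), and this was Rgs5, the most abundant (19.2 and 27.1 FPKM).

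Leukocyte markers were near 0 in both libraries. Ptprc, which encodes CD45, was listed at 0.77 and 0.47 FPKM, Cd3e of T cells at 0.14 and 0 FPKM, and Cd79a of B cells at 2.79 and 2.24 FPKM. The 21 leukocyte markers summed to 23.8 FPKM in the control and to 21.1 FPKM in the 6-OHDA library, with Cd68 the most abundant (6.05 and 5.39 FPKM). Only 6 passed the filter, of which 1 was lower, Mrc1 of resident macrophages (3.93 to 2.25 FPKM, -0.60).

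Blood, muscle, fat and skin genes were higher or level, and nerve genes were mixed. Among the red cell genes, Hbb-bs was listed at 0.47 and 3.68 FPKM and Hba-a1 at 1.01 and 4.77 FPKM, with Alas2 at 0.03 and 0.11 FPKM, and the 4 genes found summed to 1.51 and 9.31 FPKM. Skeletal muscle genes summed to 3.46 and 9.12 FPKM, with Acta1 at 0.46 and 2.89 FPKM and Ckm at 0.10 and 0.20 FPKM. Both lists stood higher in the 6-OHDA library from levels near 0.

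Adipocyte genes were carried by the fatty acid carrier gene Fabp4, which also marks capillary endothelium. It was listed at 210.2 and 374 FPKM (0.83), and the list summed to 272 and 451 FPKM. The fat cell hormone gene Adipoq (0.18 and 0.12 FPKM) and the lipid droplet gene Plin1 (0.11 and 0.33 FPKM) were near 0. Of 4 adipocyte genes compared, 3 were higher and 0 were lower.

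The keratins of suprabasal skin, Krt1 (0.05 to 2.89 FPKM, 1.89) and Krt10 (1.02 to 3.68 FPKM, 1.21), were higher, while loricrin (Lor) stayed at 0.33 and 0.31 FPKM and filaggrin (Flg) was listed at 0 in both libraries. The 8 skin keratinocyte markers summed to 6.96 and 12.7 FPKM. The sympathetic marker Th, the enzyme that starts noradrenaline synthesis, was listed at 0 and 0.04 FPKM, and the RNA of this gene lies in nerve cell bodies outside the gland. Of the 10 nerve and Schwann cell genes compared, 3 were higher and 2 were lower, with Npy, a transmitter of sympathetic nerves, at 16.8 and 9.80 FPKM (-0.72). That list summed to 160 and 181 FPKM, with Sox10 the most abundant in the control (50.6 and 61.9 FPKM) and Pmp22 in the 6-OHDA library, and basal cells express Sox10 too.

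Interferon-stimulated genes encode proteins that block viral entry, copying and release, sensors of foreign nucleic acid and the factors that keep the program running. Of 78 found in the tables, 73 were compared, and 68 were lower and 1 was higher by more than 0.3, against 8.35% lower among all genes. Their median difference was -1.11, and 41 of the 73 were lower by more than 1, against 0.902% of all genes. Of the 106 genes lower by more than 1, these 41 were on the interferon list. The 5 members under the filter were at most 1.19 FPKM in either library, the highest being Oas1g (1.19 and 0.59 FPKM).

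The largest falls were among the antiviral effectors, of which 44 were compared, with 41 lower, 1 higher and a median of -0.99. Rsad2 (NCBI Gene 58185), which encodes viperin, an enzyme that makes a chain-ending nucleotide, was listed at 169 FPKM in the control and at 19.5 FPKM in the 6-OHDA library (-3.05). Its neighbour Cmpk2, a mitochondrial nucleotide kinase gene, was listed at 73.2 and 9.64 FPKM (-2.80). The Ifit genes, whose proteins bind foreign RNA ends, were lower as a family. Ifit1 went from 60.3 to 10.2 FPKM (-2.45), Ifit2 from 74.4 to 11.2 FPKM (-2.62) and Ifit3 from 95.6 to 14.95 FPKM (-2.60). Ifit3b, a close copy of Ifit3 whose reads may be shared with it, went from 27.7 to 3.64 FPKM (-2.63). Isg15, a ubiquitin-like modifier gene, went from 159 to 51.7 FPKM (-1.60), and Usp18, which encodes the enzyme that removes ISG15, from 37.5 to 8.56 FPKM (-2.01).

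GTPases that attack vacuoles of intracellular parasites formed the most uniform group within the list. All 14 were compared and all 14 were lower by more than 0.3, with a median of -1.43, and their summed level was 722 FPKM in the control and 256 FPKM in the 6-OHDA library. Gbp2 was listed at 144 and 43.7 FPKM (-1.69), Gbp5 at 27.8 and 9.05 FPKM (-1.52), Igtp at 69.9 and 26.3 FPKM (-1.38) and Irgm1 at 78.0 and 31.1 FPKM. Tgtp1 (34.4 and 11.1 FPKM) and Tgtp2 (46.4 and 12.7 FPKM) are near-identical copies, and their separate values are uncertain.

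Sensors and transcription factors of the program were lower as well. Of the 7 sensors, 6 were lower, with a median of -1.07. Dhx58, which encodes the RNA helicase LGP2, was listed at 11.8 and 2.76 FPKM (-1.77), and Ifih1, which encodes MDA5, at 12.6 and 4.60 FPKM (-1.28). Of the 8 transcription factors, 7 were lower, with a median of -0.77. Batf2 had the largest fall among them (11.1 to 1.20 FPKM, -2.46), then Irf8 (29.0 to 8.48 FPKM, -1.66). The factors that carry the receptor signal to the nucleus moved less, with Irf9 at 37.8 and 30.2 FPKM (-0.31) and Stat2 at 19.2 and 15.4 FPKM (-0.30), Stat2 lying just inside the threshold.

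The members that did not fall were few. Ifitm3, a membrane protein gene that blocks viral fusion and the most abundant member in both libraries, was listed at 1578 and 1603 FPKM (0.02). Ifi27l2a was the member that was higher (37.0 to 52.7 FPKM, 0.50). Xaf1 (3.97 and 3.64 FPKM) and Sting1 (35.1 and 28.9 FPKM) also stayed within the threshold.

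**Figure D2:**
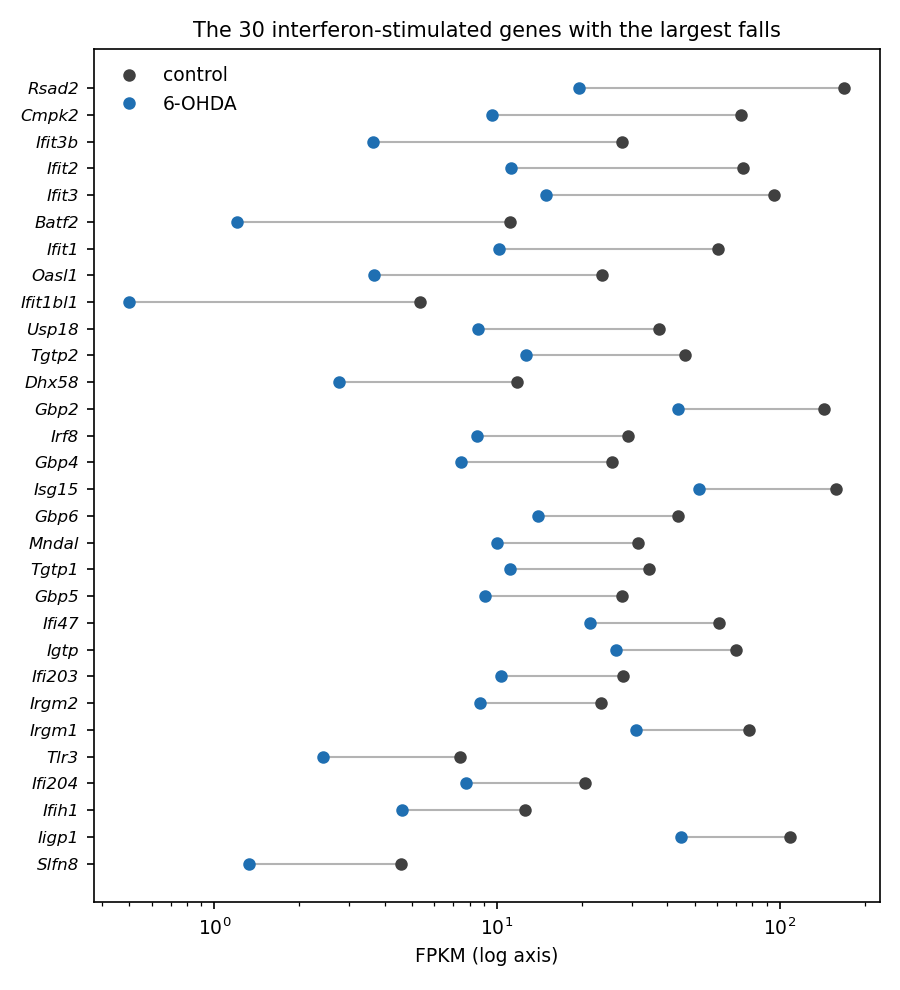
FPKM on a log axis of the 30 interferon-stimulated genes with the largest falls, in the control library (dark points) and the 6-OHDA library (blue points), joined by a line for each gene. Every gene shown is lower in the 6-OHDA library, from Rsad2 at 169 and 19.5 FPKM to Slfn8 at 4.57 and 1.33 FPKM.

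The receptors of the pathway did not show such a difference, and its ligands were too low to be compared. The 4 interferon genes found summed to 0.30 FPKM in the control and to 0.06 FPKM in the 6-OHDA library, all under the filter, among them Ifnb1 at 0.11 and 0 FPKM and Ifng at 0 and 0.06 FPKM. The 11 receptors, kinases and inhibitors compared had a median of -0.03, with 2 higher and 2 lower. Ifngr2 (13.0 to 17.2 FPKM, 0.38) and Ifnar1 (5.56 to 7.49 FPKM, 0.37) were higher. Socs1 (20.1 to 13.0 FPKM, -0.59) and Socs3 (353 to 276 FPKM, -0.35), feedback inhibitors that interferons and other cytokines induce, were lower.

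Beside these genes, leukocyte markers were near 0 in both libraries, as given above. A list of lymph node vessel and stroma genes, described last, fell from a sum of 6104 FPKM in the control to 3018 FPKM after 6-OHDA. Most of that sum was 1 gene, Glycam1, at 4729.5 FPKM in the control and 2171 FPKM after 6-OHDA. Of the 22 genes on that list, 13 were lower, against 8.35% of all genes. The part of leukocytes or of lymph node tissue in the interferon values was not tested. In bulk samples such as these, fewer cells of a type and less RNA per cell cannot be told apart. In the colonies of the same study, which had been kept in culture, the 78 genes summed to 1189.8 FPKM without and 1339.8 FPKM with agonists, beside 4075 FPKM in the control and 2621 FPKM in the 6-OHDA library.

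Many of the genes lower by more than 1 lie next to each other in the genome. The submitters' notes name build mm10, and positions are those of GRCm38.p6, the same assembly. Of 105 such genes with a position, 46 fell into 9 clusters of at least 3 genes with gaps of at most 500000 bases. The Ifit cluster at chr19:34473783-34662981 held 6 of them among 7 genes compared, the other members being Ch25h and Ifit1bl1. The cluster of Ifi200 genes at chr1:173468485-173942866, whose proteins bind DNA, held 8 among 9 genes compared, and all 9 were lower by more than 0.3.

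Further clusters held the GTPases and the Schlafen genes. On chromosome 3, Gbp2, Gbp3, Gbp5 and Gbp7 at chr3:142496934-142638008 were the 4 genes compared there and all were lower by more than 1. On chromosome 11, the span chr11:48865245-49096987 held 6 such genes, with Irgm1, Tgtp1, Tgtp2 and Ifi47 among them, and the span chr11:82951349-83664683 held 7, with Slfn5, Slfn8, Ccl4 and Ccl5 among them. The part of the major histocompatibility complex at chr17:33909404-34316674 held 5, from Daxx through Tap1 to the class II genes, and 10 of its 24 genes compared were lower by more than 0.3. Genes of a cluster are often copies of each other, so they are not independent measurements.

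Interferon signals reach many of these genes through the ISRE, a promoter element read by factors that interferons activate. The element, GAAA followed by any 2 bases and GAAA again, was searched on both strands in the 250 bases before the start of each gene in the RefSeq promoters of GRCm38.p6. It occurred in 2.98% of all 32851 windows and in 309 of the 9413 compared genes that have a window (3.28%). Of the 106 genes lower by more than 1, 83 have a window and 32 of these hold the letters. Of the 73 interferon-stimulated genes compared, 56 have a window and 25 of these hold them. Fewer than 80% of either set have a window, so the check is void as a share of these sets and the counts describe the windows at hand. Among genes within 0.3 of zero, 196 of 7184 held the letters (2.73%). A match is a run of letters and does not show that a factor binds there.

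The stretches below carry the element in genes with large falls, each read 5′ to 3′ on the strand of its gene, with the letters of 1 match in capitals. Further matches that overlap or follow it, in Ifit1 and Isg15, are left in lower case. Where the capitals begin with TTTC, the element lies on the opposite strand. They are given to show the element in its setting. Their likeness within the capitals follows from the search, and the position is that of the stretch in GRCm38.p6. Rsad2 at chr12:26456543-26456592 and Isg15 at chr4:156200861-156200910 lie on the minus strand, as does Cxcl10 at chr5:92349073-92349122. Ifit1 at chr19:34640765-34640814, Ifit3 at chr19:34583353-34583402, Ifit3b at chr19:34607749-34607798, Gbp2 at chr3:142620584-142620633 and Igtp at chr11:58199502-58199551 lie on the plus strand. The stretches of Ifit3 and Ifit3b are the same letter for letter.
Rsad2: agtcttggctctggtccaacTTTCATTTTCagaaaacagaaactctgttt
Cxcl10: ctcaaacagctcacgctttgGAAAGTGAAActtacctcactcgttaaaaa
Ifit1: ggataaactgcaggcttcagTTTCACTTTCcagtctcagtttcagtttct
Ifit3: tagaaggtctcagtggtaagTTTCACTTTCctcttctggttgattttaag
Ifit3b: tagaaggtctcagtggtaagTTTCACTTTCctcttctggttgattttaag
Isg15: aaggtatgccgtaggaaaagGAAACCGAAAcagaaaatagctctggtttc
Gbp2: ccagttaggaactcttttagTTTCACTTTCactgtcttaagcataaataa
Igtp: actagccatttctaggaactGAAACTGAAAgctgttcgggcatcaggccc

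Genes that load and show peptides on MHC class I were lower as well, at higher absolute levels. Of 14 compared, 13 were lower and 0 were higher, with a median of -0.51. Tap1, a subunit of the peptide transporter, was listed at 42.7 and 19.8 FPKM (-1.07). The heavy chain genes H2-K1 (893 and 534 FPKM, -0.74) and H2-D1 (637 and 434 FPKM, -0.55) and the light chain gene B2m (995 and 794 FPKM, -0.32), the most abundant member, were all lower. The immunoproteasome subunit genes Psmb9 (10.4 and 6.26 FPKM, -0.65) and Psmb8 (32.4 and 21.4 FPKM, -0.58) were lower by similar amounts, and Psme2, a proteasome activator gene, stayed within the threshold (78.9 and 70.9 FPKM, -0.15). H2 genes are close copies of each other, and their separate values are uncertain.

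MHC class II genes, which professional antigen-presenting cells and interferon-treated epithelium express, were lower too. Of 6 compared, 4 were lower and 0 were higher, with a median of -1.08. Cd74, the invariant chain gene, was listed at 73.0 and 19.5 FPKM (-1.85) and H2-Ab1 at 22.2 and 6.91 FPKM (-1.55). The list summed to 126 FPKM in the control and to 41.5 FPKM in the 6-OHDA library, while Ciita, its master regulator gene, was under the filter (0.17 and 0.10 FPKM). Cd274, which encodes the inhibitory ligand PD-L1, had one of the 10 largest falls among genes with a mean of at least 5 FPKM (41.8 to 6.97 FPKM, -2.42). Whether a small number of antigen-presenting cells gave these transcripts was not tested, and Ptprc stood at 0.77 and 0.47 FPKM.

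Chemokines, which draw leukocytes into tissue, went in both directions. Of 20 compared, 10 were lower and 4 were higher, with a median of -0.23. The interferon-induced ligands of CXCR3, Cxcl10 (584 to 84.1 FPKM, -2.78) and Cxcl9 (55.1 to 9.11 FPKM, -2.47), had the largest falls. Ccl5, a lymphocyte attractant gene, went from 4.27 to 1.36 FPKM (-1.16), and Ccl2, a monocyte attractant gene, from 217 to 121 FPKM (-0.83). Ccl20, which attracts cells bearing CCR6, was higher (3.55 to 6.98 FPKM, 0.81), as were Cxcl17 (2.22 to 4.32 FPKM, 0.72) and the neutrophil attractant gene Cxcl2 (51.5 to 75.7 FPKM, 0.55). Cxcl14, the most abundant chemokine, was listed at 944 and 858 FPKM (-0.14).

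NF-κB response and cytokine genes moved less. Of 26 compared, 6 were lower and 2 were higher, with a median of -0.12. Tnfsf10, which encodes the death ligand TRAIL and is also induced by interferon, went from 20.6 to 11.3 FPKM (-0.81), and Il15 from 5.34 to 2.90 FPKM (-0.70). Il6 was higher (139 to 196 FPKM, 0.49). Icam1, the most abundant member, was listed at 543 and 487 FPKM (-0.16).

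Complement genes, which tag and lyse microbes, were lower in most members. Of 11 compared, 7 were lower and 2 were higher, with a median of -0.50, which was -0.21 over all 14 genes with no filter. C3, the central component, was listed at 269 and 98.4 FPKM (-1.44), the factor B gene Cfb at 87.6 and 47.8 FPKM (-0.86) and C2 at 18.2 and 8.79 FPKM (-0.97). C1ra (36.5 and 20.2 FPKM, -0.83) and C1s1 (110.3 and 66.5 FPKM, -0.72), proteases of the first complex, were lower as well. Cfp (2.34 and 3.29 FPKM) and Cd59a (7.70 and 9.74 FPKM) were the higher members, both just past the threshold.

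Antimicrobial genes of epithelium gave no common direction. Of 10 compared, 4 were higher and 4 were lower, with a median of 0.01. Over the 7 with a mean of at least 5 FPKM, 2 were higher and 4 were lower, with a median of -0.35. Chil1 (602 to 338 FPKM, -0.83) and Pglyrp1, which binds bacterial wall fragments (24.8 to 12.1 FPKM, -0.98), were lower, and Wfdc2 was higher (29.4 to 47.4 FPKM, 0.67). Lcn2, the iron-scavenging lipocalin gene and the most abundant member, was listed at 762 and 841 FPKM (0.14). Saa3, an acute phase gene, was listed at 0 in the control and at 6.14 FPKM in the 6-OHDA library.

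Mitosis genes, whose products build the spindle and divide the cell, were higher in the 6-OHDA library. Of 49 found, 42 were compared, and 38 were higher and 1 was lower by more than 0.3, against 15.8% higher among all genes. Their median difference was 0.90, and 18 were higher by more than 1, against 1.05% of all genes. With a pseudocount of 5, which lowers the weight of low values, the median was 0.41 and 28 were higher. Top2a, which untangles chromosomes, was listed at 2.59 and 9.68 FPKM (1.57), the kinase gene Pbk with a difference of 1.24, Mki67, which encodes the proliferation antigen Ki67, at 2.31 and 6.70 FPKM (1.22), and Ube2c, which encodes an enzyme of anaphase, at 3.78 and 9.85 FPKM (1.18). Pttg1, the securin gene, was the lower member (27.6 and 22.0 FPKM, -0.32). The list summed to 133 FPKM in the control and to 243 FPKM in the 6-OHDA library, beside 714 and 1161 FPKM in the colonies without and with agonists.

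DNA replication genes were higher by less. Of 39 compared, 23 were higher and 0 were lower, with a median of 0.41. Lig1, the ligase that joins replicated strands, was listed at 2.59 and 6.64 FPKM (1.09), the helicase subunit gene Mcm5 at 3.08 and 6.68 FPKM (0.91), and the primase gene Prim1 at 2.35 and 5.18 FPKM (0.88). Pcna, the sliding clamp gene, which also serves DNA repair and was the most abundant member, was listed at 232 and 222 FPKM (-0.06). With a pseudocount of 5 the median fell to 0.23, and among the 16 members with a mean of at least 5 FPKM it was 0.16, so the difference was smaller among members with higher values. Of 10 cyclin D and CDK inhibitor genes compared, 5 were higher and 1 was lower, with a median of 0.30, and with a pseudocount of 5 only 1 was higher. The lower member was Ccnd1 (40.3 and 30.9 FPKM, -0.37). Among the CDK inhibitor genes Cdkn1a, the most abundant, was listed at 259.8 and 245 FPKM (-0.08) and Cdkn1c at 4.44 and 6.34 FPKM (0.43). Which cell type carried these transcripts was not tested.

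Promoters of both groups were searched as well. The letters TTTNGCGC, a form of the E2F element of replication genes, occurred in 7 of the 34 DNA replication genes with a window (20.6%), in 233 of the 9413 compared genes (2.48%) and in 1.13% of all windows, counting both strands. The letters TTTGAA, the cell cycle homology region of mitosis genes, occurred in 13 of the 33 mitosis genes with a window, in 1188 compared genes (12.6%) and in 16.0% of all windows. Of the 42 mitosis genes compared, fewer than 80% have a window, so that check is void as a share of the list.

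Most markers of fibroblasts, the collagen-making cells of the stroma, stood above the control by more than 0.3 after 6-OHDA. Of 15 compared, 11 were higher and 0 were lower, with a median of 0.59, against 15.8% higher among all genes, and 6 were higher by more than 1. With a pseudocount of 5 the median was 0.33 and 8 were higher. The fibrillar collagen genes led, with Col3a1 at 18.3 and 91.7 FPKM (2.26), Col1a1 at 14.0 and 55.4 FPKM (1.91) and Col1a2 at 21.4 and 71.1 FPKM (1.68). The proteoglycan gene Lum was listed at 3.22 and 10.9 FPKM and Col6a3 at 4.16 and 11.7 FPKM. Within the threshold were 4 markers. They were Dcn (115 and 135 FPKM, 0.22), the receptor gene Pdgfra (2.62 and 3.40 FPKM, 0.28), Fbn1 (0.04) and Fbln1 (0.28).

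The receptors and factors on the list, which matrix production does not include, were low in both libraries. These 6 genes summed to 8.59 FPKM in the control and to 13.3 FPKM in the 6-OHDA library, and 3 of the 4 compared were higher, with a median of 0.53. The whole list of 17 genes summed to 246 and 464 FPKM, with Dcn, a collagen-binding proteoglycan gene, the most abundant in both libraries. Whether more fibroblasts in the sorted cells carried these transcripts was not tested.

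Basement membrane and integrin genes, which basal cells make themselves, gave smaller values. Of 22 compared, 3 were higher and 0 were lower, with a median of 0.15. Lama1 (6.51 to 12.5 FPKM, 0.85), Col18a1 (76.8 to 119.7 FPKM, 0.63) and Itgb6 (1.34 to 2.17 FPKM, 0.44) were higher, and Sparc, the most abundant, was listed at 761 and 877 FPKM (0.20). Of 16 matrix proteases and inhibitors, 3 were lower and 2 were higher, with a median of -0.03. Mmp2 (94.3 to 68.2 FPKM, -0.46) and Timp3 (178 to 129.8 FPKM, -0.46) were lower, and Mmp13 (0.46 to 1.60 FPKM, 0.83) and Serpine2 (12.2 to 19.6 FPKM, 0.64) were higher.

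Secretory genes of the salivary gland were mostly at or near 0 in the control library, and part of them were abundant in the 6-OHDA library. Of 25 such genes found, 19 were listed at 0 in the control and 2 in the 6-OHDA library, and 22 further names had no match in the tables. The 9 genes under the filter were at most 1.66 FPKM in the 6-OHDA library. Bpifa2 (NCBI Gene 19194), the parotid secretory protein gene, was listed at 0 in the control and at 7277 FPKM in the 6-OHDA library, where it was the most abundant of all genes. Smr3a was listed at 0 and 3086 FPKM, Dcpp1 at 0 and 2733 FPKM, and the amylase gene Amy1 at 1751 FPKM after a low level in the control. The 25 genes summed to 10.2 FPKM, or 0.00200% of the total, in the control, and to 16454 FPKM, or 3.18%, in the 6-OHDA library. In the colonies the same genes summed to 1.77 and 2.10 FPKM.

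A filter on the mean kept 16 of these genes, of which 15 were higher, and a gene present in 1 library alone passes that filter only by being high there. The member that was lower was Fcgbp (8.11 to 3.11 FPKM, -1.15), a mucin-like gene that other epithelia also express. Dcpp1, Dcpp2 and Dcpp3 on chromosome 17 are close copies, and their separate values are uncertain. The list includes Pip, Lpo and other genes that lacrimal or mammary gland also express, and it was written with these values known, so its direction is no independent finding.

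Transcription factors and channels of salivary acinar cells did not follow the secretory genes. Of 10 compared, 3 were higher and 1 was lower, with a median of 0.14, and the 17 found summed to 286 and 315 FPKM. Bhlha15, the acinar factor gene, was listed at 0.97 and 0.87 FPKM, Aqp5, the water channel gene, at 3.46 and 4.74 FPKM, and Ano1, a chloride channel gene that basal cells share and the most abundant member, at 81.4 and 92.5 FPKM. Milk protein genes gave mixed values. Csn2 and Wap were listed at 0 in both libraries, Csn3 was listed at 38.4 and 103.6 FPKM (1.41), and Lalba at 0.37 and 1.02 FPKM.

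Genes newly present in the 6-OHDA library were also counted without a list. There were 21 genes under 1 FPKM in the control and at 10 FPKM or more in the 6-OHDA library, and 0 genes in the reverse case. Of the 21, 12 were on the salivary list and 9 were not, and the 21 made up 3.03% of the FPKM sum of the 6-OHDA library. Outside the list were Chia1, an acidic chitinase gene (0 and 419.9 FPKM), 2310057J18Rik (0 and 283 FPKM), Dnase1, a secreted nuclease gene (0 and 173 FPKM), Crisp1 (0 and 58.9 FPKM) and Prpmp5 (0 and 10.8 FPKM), all 5 under 1 FPKM in both colony libraries. The other 4 were Cstdc5 (0.70 and 23.1 FPKM), Stfa3 (0.42 and 14.4 FPKM), both inhibitors of cathepsins, Wfdc12 (0.25 and 17.3 FPKM) and Bglap3 (0.64 and 11.6 FPKM), all above 1 FPKM in the colonies. Where the salivary transcripts came from was not tested.

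Leaving out the salivary list and rescaling both libraries to the same sum raised the other values of the 6-OHDA library slightly. Of the 11743 genes then compared, 2066 (17.6%) were higher and 892 (7.60%) were lower by more than 0.3, and 114 (0.971%) were higher and 104 (0.886%) were lower by more than 1. The median of all genes was then 0.07. The lists kept their values closely, with a median of -1.09 for interferon-stimulated genes, 0.91 for mitosis genes and 0.61 for fibroblast markers. Among genes with a mean of at least 5 FPKM, the largest rises without the salivary genes were those of Chia1, 2310057J18Rik, Dnase1 and Crisp1, then Wfdc12, Cstdc5, Prpmp5, Stfa3 and Bglap3, and Ggh, which encodes an enzyme of folate breakdown (8.81 to 63.1 FPKM, 2.71). The 10 largest falls were the same genes as with all genes kept, since no salivary gene was among them.

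**Figure D3:**
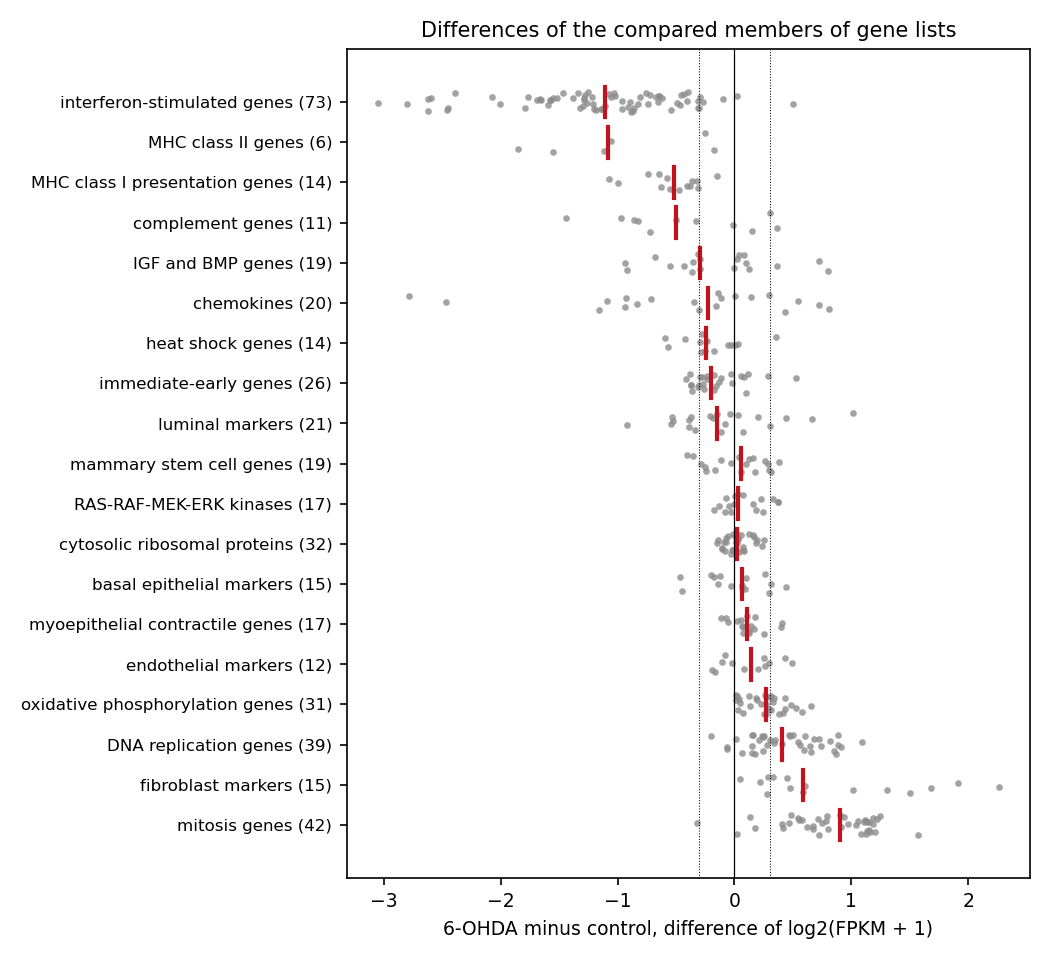
Difference between the 6-OHDA and the control library, on the log2(FPKM + 1) scale, of every compared member (grey points) of 19 gene lists, with the number of members in brackets, the list median in red and dotted lines at 0.3 on either side of zero. Interferon-stimulated genes (median -1.11) stand at the low end and mitosis genes (median 0.90) at the high end, while ribosomal protein genes stay within the dotted lines.

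Stem cell genes of the mammary gland were near level as a group. Of 19 compared, 2 were higher and 2 were lower, with a median of 0.06, the same as for all genes. Procr (NCBI Gene 19124), the protein C receptor gene that marks a stem cell population of the basal layer, was listed at 253 FPKM in the control and at 191 FPKM in the 6-OHDA library (-0.41). Cd1d1, a lipid-presenting molecule gene, was listed at 7.12 and 5.36 FPKM (-0.35). The higher members were Bmi1, a chromatin repressor gene (6.71 and 9.05 FPKM, 0.38), and Zeb1, a mesenchymal factor gene (5.36 and 6.89 FPKM, 0.31).

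Receptors for noradrenaline were few. Of 9 adrenergic receptor genes, 2 passed the filter, of which 0 were past the threshold, and Adra2a was listed at 1.34 and 0.94 FPKM (-0.27). Adra1d, a receptor gene that the study follows, was under the filter at 0.91 and 0.82 FPKM. Targets of cAMP and CREB, a pathway that some of these receptors switch on, had a median of -0.05 over 16 genes, with 3 lower and 0 higher. Pde4d, which breaks down cAMP, was listed at 14.4 and 10.4 FPKM (-0.43).

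Genes of the ERK cascade were close to level. The 17 kinases, adaptors and RAS genes had a median of 0.03, with 0 lower and 3 higher, among the latter Nras (15.4 and 20.2 FPKM, 0.37) and Braf (6.73 and 8.73 FPKM, 0.33). Against genes of like GC content, 0 of the 17 were past the threshold. Map2k1 was listed at 44.3 and 42.8 FPKM (-0.05), Map2k2 at 30.8 and 29.0 FPKM (-0.08) and Mapk3 at 25.6 and 30.4 FPKM (0.24). The 17 feedback and output genes of ERK had a median of 0.03, with 4 higher and 2 lower. These counts depended on scaling, with 3 higher and 4 lower after rescaling to the same sum or by the median ratio. Dusp5, an ERK phosphatase gene, was lower (118 to 82.6 FPKM, -0.51), while Etv4 (8.60 to 12.6 FPKM, 0.50), Etv1 (0.81 to 2.61 FPKM) and Il1rl1 (1.65 to 4.31 FPKM) were higher. Transcript levels do not measure the activity of these kinases.

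Immediate-early genes, which cell dissociation also switches on, were high in both libraries. Their 26 members summed to 6753 FPKM in the control and to 5887 FPKM in the 6-OHDA library, and 6 were lower and 1 was higher, with a median of -0.20. By the median ratio 11 were lower. Fos was the most abundant (809 and 666 FPKM, -0.28). Dusp1 (250.3 to 188 FPKM, -0.41), Klf4 (188 to 144 FPKM, -0.38) and Junb (801 to 619 FPKM, -0.37) were lower, and Ccn2, a target of YAP and TGF-β, was higher (193 to 278 FPKM, 0.52).

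Heat shock genes were lower in 3 of 14 members and higher in 1, with a median of -0.24. The count of lower members depended on scaling, with 6 after rescaling to the same sum and 7 by the median ratio or against genes of like GC content. Hspa1b (238 to 158 FPKM, -0.59) and Hspa1a (154 to 103 FPKM, -0.57), near-identical copies, and their co-chaperone gene Bag3 (238 to 178 FPKM, -0.42) were lower, and Hspa4l was higher (7.93 to 10.4 FPKM, 0.36).

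BMP targets and IGF binding proteins held several lower genes. Of 19 IGF and BMP genes compared, 8 were lower and 3 were higher, with a median of -0.29. That median was -0.13 with a pseudocount of 5 and 0.01 over the 16 members with a mean of at least 5 FPKM, so the list has no stable direction. Id1 (48.7 to 24.9 FPKM, -0.94) and Id3 (248 to 130.4 FPKM, -0.92), direct targets of BMP signals, were lower, as was the BMP antagonist gene Nog (4.30 to 2.30 FPKM, -0.68). Igfbp2 (98.3 to 171 FPKM, 0.80) and Igf2 (5.54 to 9.77 FPKM, 0.72) were higher. Igfbp5, the most abundant member, was listed at 559.5 and 457 FPKM (-0.29).

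Most Wnt, Notch and EGF family genes stayed within the threshold. Of 24 Wnt genes, 5 were lower and 2 were higher, with a median of -0.04. Wnt11 (138 to 88.4 FPKM, -0.64) and Wnt5b (17.4 to 12.3 FPKM, -0.47) had the largest falls, and Wnt6 was higher (2.34 to 3.31 FPKM, 0.37). Of 13 Notch genes, 2 were lower and 1 was higher (median 0.03, and -0.21 over the 11 with a mean of at least 5 FPKM), with Hes1, a Notch target gene, at 54.2 and 41.5 FPKM (-0.38). Of 10 EGF family genes, 3 were higher and 1 was lower (median 0.09), with Nrg1 at 57.4 and 80.6 FPKM (0.48) and Hbegf at 133 and 105 FPKM (-0.33). Hormone response genes were close to level, with 1 of 8 past the threshold, Prlr.

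Genes by which tissue attracts nerves gave no common direction. Of 20 neurotrophic and axon guidance genes compared, 4 were higher and 3 were lower, with a median of -0.09. Sema3b, which encodes a repellent, was higher (4.56 to 14.7 FPKM, 1.49), and so was Sema3c (31.8 to 43.9 FPKM, 0.45). Ntn4 was lower (10.1 to 7.65 FPKM, -0.36). Efna1 was the most abundant member in the control (48.8 and 46.4 FPKM).

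Oxidative defence was examined because 6-OHDA acts by oxidation. Of 21 NRF2 and oxidative defence genes compared, 3 were higher and 1 was lower, with a median of 0.08. The glutathione peroxidase genes Gpx2 (4.04 to 11.0 FPKM, 1.25) and Gpx3 (56.0 to 107.7 FPKM, 0.93) and the quinone reductase gene Nqo1 (7.35 to 9.80 FPKM, 0.37) were higher, and the transferase gene Gstm1 was lower (59.4 to 39.6 FPKM, -0.57). Fth1, a ferritin gene and the most abundant member, was listed at 1220 and 1143 FPKM (-0.09), and it was 1 of the 17 members within the threshold.

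Stress and metabolic genes mostly followed all genes, of which 15.8% were higher and 8.35% were lower. The unfolded protein response list had a median of 0.14 over 20 genes, with 5 higher and 0 lower, among them Sdf2l1 (5.05 to 8.73 FPKM, 0.69) and Pdia4 (27.6 to 42.3 FPKM, 0.60). The glycolysis and hypoxia list had a median of 0.11 over 22 genes, with 6 higher and 0 lower, led by the mitophagy gene Bnip3 (5.77 to 11.9 FPKM, 0.93). The cholesterol synthesis list had a median of 0.09 over 19 genes, with 3 higher and 0 lower, and Msmo1 had the largest rise (15.3 to 22.3 FPKM, 0.51). The glucocorticoid response list had a median of 0.05 over 11 genes, of which Dusp1 alone passed the threshold. Of 13 circadian clock genes, 4 were lower and 0 were higher (median -0.09, and 0.05 over the 11 with a mean of at least 5 FPKM), with Ciart (6.96 to 4.16 FPKM, -0.63) and Per2 (18.7 to 12.7 FPKM, -0.52) the lowest.

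Nuclear genes of oxidative phosphorylation stood higher as a group by small amounts. Of 31 compared, 13 were higher and 0 were lower, against 15.8% higher among all genes, with a median of 0.27. The highest were Cox7c (193 to 304 FPKM, 0.65) and Ndufa1 (79.8 to 119.5 FPKM, 0.58). The 32 cytosolic ribosomal protein genes, in contrast, had a median of 0.02 with 0 genes past the threshold in either direction. Among 12 reference genes, Hprt was higher (68.6 to 91.6 FPKM, 0.41) and Polr2a was lower (30.1 to 20.2 FPKM, -0.55), and the median was 0.14.

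Differences between the libraries followed the base composition of the transcripts. Transcript GC content was known from GENCODE vM21 for 11616 of the genes compared. In the bin of lowest GC content, from 33.2% to 43.5%, the median difference was 0.21 and 32.6% of 1452 genes were higher by more than 0.3. In the bin of highest GC content, from 57.7% to 72.8%, the median was -0.04 and 8.33% of genes were higher. The median fell from each of the 8 bins to the next. By transcript length the medians ran only from 0.08 in the shortest of 8 bins to 0.02 in the longest.

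**Figure D4:**
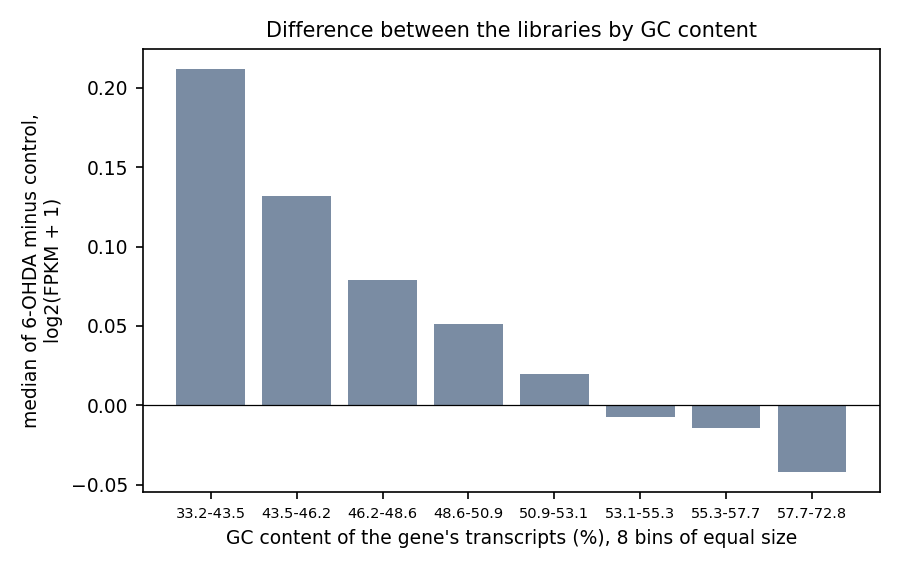
Median difference between the 6-OHDA and the control library on the log2(FPKM + 1) scale (bars) for genes in 8 bins of equal size by the GC content of their transcripts. The median falls from 0.21 in the bin of lowest GC content to -0.04 in the bin of highest GC content.

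The lists were therefore read again against genes of like GC content, an alternative chosen after these values were seen. Taking each gene's difference from the median of its GC bin, with 20 bins, left 1183 genes higher and 1146 lower, so that 50.8% of the genes past 0.3 were higher, against 65.4% without it. The median of the interferon-stimulated genes was then -1.21, that of the MHC class I genes -0.56, that of the mitosis genes 0.77, that of the fibroblast markers 0.45 and that of the DNA replication genes 0.34. Oxidative phosphorylation genes had a median of 0.22 with 10 of 31 higher, and chemokines a median of -0.36. None of these medians changed direction. Scaling by the median ratio gave 1358 higher and 1336 lower, or 50.4% higher. Both alternatives centre the differences on 0, so an even split follows from how they are made.

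Genes of lymph node vessels and stroma were present in both sorted libraries, and their list was written after the values were seen. Glycam1, a mucin-like ligand gene of high endothelial venules that milk-producing epithelium also makes, was listed at 4729.5 FPKM in the control, where it ranked 3rd of all genes, and at 2171 FPKM in the 6-OHDA library (-1.12). Ccl21a, a chemokine gene of lymphatic endothelium and reticular stroma, was listed at 678 and 298 FPKM (-1.18). Of 22 genes on this list, 13 were lower and 1 was higher, against 8.35% lower among all genes, with a median of -0.37. Their sum, most of it Glycam1, was 6104 FPKM in the control and 3018 FPKM in the 6-OHDA library.

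The vessel and stroma genes differed among themselves. Lower members were the scavenger receptor genes Marco (-1.20) and Stab2 (18.2 to 8.31 FPKM, -1.05), and the stromal genes Ch25h (50.4 to 22.1 FPKM, -1.16) and Ccl19 (28.2 to 13.1 FPKM, -1.05). Ackr1, a venule marker, was within the threshold, and so was Prox1, the factor of lymphatic endothelium (3.48 and 3.34 FPKM), and Reln was the higher member (14.2 to 18.3 FPKM, 0.34). Ch25h and Ccl19 can also be induced by interferon. The colonies summed to 185 and 184 FPKM over the same list. Whether lymph node tissue, which lies inside the mammary fat pad, entered the sorts was not tested.

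Most genes above were named by a rule, the largest changes, the highest levels, cell type markers and genes the study names. The genes of the lymph node list and the following genes were chosen after their values were seen: Ackr1, Bhlha15, Ccl2, Ccl20, Cd59a, Cfp, Ciita, Csn2, Cxcl17, Cxcl2, Daxx, Dhx58, Gbp2, Gbp3, Gbp5, Gbp7, H2-D1, Ifi27l2a, Ifi47, Ifih1, Ifit1bl1, Ifnb1, Ifng, Igtp, Irf8, Irf9, Irgm1, Isg15, Lalba, Oas1g, Prox1, Psmb8, Psme2, Reln, Slfn5, Slfn8, Stab2, Stat2, Sting1, Tgtp1, Tgtp2, Ube2c, Usp18, Wap and Xaf1.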

How the data were processed

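RNA-seq of sorted mammary basal cells was analysed, with 1 library for each condition. The authors deposited FPKM values with 2 decimals; the submitters' processing notes name Bowtie2, RSEM 1.3.1, DESeq2 1.4.5 and build mm10, with no role or order, and the annotation is not given in the sources used here. Read counts were not used here. Spacing of the lowest values gave a rough depth: 1 FPKM on 1 kilobase stood for 16.6 to 18.2 fragments in the control and 15.7 to 17.3 in the 6-OHDA library at assumed fragment lengths of 150 to 300 bases. Of 17630 genes, 17512 were named from RefSeq GRCm38.p6.

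Differences of log2(FPKM + 1) were computed in Python 3.11.15 with numpy 2.4.6 and pandas 2.3.3, and the steps were tested on simulated data. There were 50 gene lists from general knowledge and 1 added later. Members and lists were chosen with earlier results of these data known. Genes were named as the 10 largest rises and falls at a mean of at least 5 FPKM, with and without salivary genes, the 5 largest changes and the highest member of each list, all cell type markers, and the genes the study names. Genes named outside this rule were chosen after their values were seen and are listed above. Alternatives were other pseudocounts, filters and scalings, and matching on GC content.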

Additional observations from a re-analysis of the deposited data

How the results depend on the processing

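With 1 library a side, no replicate spread sets these differences apart from variation between mice, and low genes rest on few fragments. No paired analysis was possible because each side has 1 library and the labels give no pairing. The counts of genes higher and lower by more than 0.3 were 1857 and 981. They were 804 and 539 with a pseudocount of 5, 1066 and 639 among genes with a mean of at least 5 FPKM, and 123 and 106 at a threshold of 1. Against genes of like GC content, chosen after seeing the data, 1183 genes were higher. A pseudocount of 5 gave medians of 0.23 for DNA replication genes, 0.41 for mitosis genes and 0.33 for fibroblast markers. A mean of at least 5 FPKM gave 0.16 for DNA replication genes, no filter gave 4.23 for salivary secretory genes, and like GC content gave -0.36 for chemokines. Why these values moved was not tested. The median of interferon-stimulated genes ran from -1.21 to -0.83 over 9 alternatives, and that of MHC class I genes from -0.58 to -0.40. Of 268 genes past 0.3 that the naming rule or a later choice selected, not all of them named in the text, 212 stayed past it under every alternative run and 0 changed direction.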
